A study of Mus musculus with 9 samples.

Results

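A set of 10 genes that encode acute phase proteins of the liver was followed: Saa1, Saa2, Saa3, Orm1, Orm2, Hp, Lcn2, Itih4, Hpx and Lbp. They were chosen by name from the 52550 genes in each table, and all 10 passed the filter on low values that left 12014 genes for testing. Liver RNA came from mice of 3 genotypes at 320 days of age, with 3 libraries per genotype. The p53-heterozygous group was p53+/-, the Tsc1-deleted group was Tsc1fl/fl;Alb-Cre, and the double-mutant group was p53+/-;Tsc1fl/fl;Alb-Cre. No allele was common to all 3 groups, and Alb-Cre places Cre recombinase under the albumin promoter, which is active in hepatocytes and in the hepatoblasts that also give rise to bile duct cells. Tissue was taken whole, and the labels do not say whether it held tumour.

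Acute phase proteins are plasma proteins whose hepatic synthesis changes after infection, injury or inflammation. Interleukin-6 and interleukin-1 released by macrophages act on hepatocytes through the transcription factors STAT3, NF-kB and the C/EBP family to raise them. Most are secreted into the blood, where they bind lipoprotein, haem, haemoglobin, iron carriers or bacterial products.

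Values are FPKM (fragments counted per gene, divided by its length and by the mapped reads, a unit read from the values), so levels can be compared between genes. Depth was about 10700000 to 18600000 reads per library. The p53-heterozygous libraries stood apart from the others and from each other. Mitochondrial transcripts took 68.0% of the signal in p53-heterozygous library 1, 55.9% in library 2 and 25.5% in library 3, against 8.0% to 24.1% in the other 6 libraries. Nuclear protein-coding genes held 7.4% and 6.6% of it in libraries 1 and 2 of that group and 61.8% to 87.3% in the other 7. Tests of the 10 genes are therefore given as deposited and after nuclear rescaling, in which every library is brought to an equal nuclear protein-coding total, by factors of 10.29, 11.11 and 1.33 in the p53-heterozygous libraries and 0.96 to 1.05 elsewhere. Library 3 of that group went against its tissue label in another way. Its 17 hepatocyte markers summed to 1025.1 FPKM after nuclear rescaling, against 50150.3 and 51280.0 FPKM in libraries 1 and 2, and its Alb stood at 149.50 FPKM as deposited against 2215.72 and 2375.25 FPKM. Its 14 macrophage markers summed to 3279.1 FPKM after rescaling against 422.3 and 391.1 FPKM, with Lyz2 (932.69 FPKM) and Ctss (872.62 FPKM) highest, while the Kupffer cell markers of that list went the other way, with Clec4f at 0.29 FPKM against 26.38 and 33.63, Vsig4 at 0.00 FPKM against 29.24 and 22.97, and Cd5l at 0.13 FPKM against 47.44 and 27.38. Its 12 fibroblast markers summed to 1087.9 FPKM against 193.5 and 146.0 FPKM, and against 61.0 to 139.8 FPKM in the other genotypes. Its 10 cholangiocyte markers summed to 2567.7 FPKM against 156.6 and 114.7 FPKM, and the other genotypes reached 545.0 to 3568.5 FPKM. Spp1 made up most of each of these sums, at 2190.05 FPKM in library 3. Krt19 and Krt7 were highest in library 3, at 279.56 and 56.8 FPKM against at most 48.41 and 9.85 FPKM elsewhere. No other marker of that list was highest there, with Epcam at 14.24 FPKM against up to 32.72 FPKM. In bulk tissue, fewer cells of a type and less RNA per cell cannot be told apart. The labels do not state whether each library is a separate animal, and p values then reflect only the variation among these samples, which may be technical.

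The promoters of the serum amyloid A genes and of Orm2 are shown because Saa1 and Saa2 followed each other most closely of all pairs of these genes, and because a C/EBP motif was found in all 4. RefSeq promoters on GRCm38.p6 were matched for 7 of the 10 genes, as the 250 bases before the annotated start, 5′ to 3′ on the gene's strand. Capitals mark the C/EBP motif TTGCNNAA or its reverse complement. Saa1 lies at chr7:46742981-46743230 on the minus strand and Saa2 at chr7:46751583-46751832 on the plus strand, as divergent neighbours, Saa3 at chr7:46715677-46715926 on the minus strand, and Orm2 at chr4:63362199-63362448 on the plus strand.
Saa1: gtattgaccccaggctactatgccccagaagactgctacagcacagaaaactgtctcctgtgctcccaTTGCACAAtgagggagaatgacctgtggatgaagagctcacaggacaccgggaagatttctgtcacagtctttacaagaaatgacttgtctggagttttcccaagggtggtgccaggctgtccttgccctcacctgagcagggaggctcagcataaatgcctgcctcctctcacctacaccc
Saa2: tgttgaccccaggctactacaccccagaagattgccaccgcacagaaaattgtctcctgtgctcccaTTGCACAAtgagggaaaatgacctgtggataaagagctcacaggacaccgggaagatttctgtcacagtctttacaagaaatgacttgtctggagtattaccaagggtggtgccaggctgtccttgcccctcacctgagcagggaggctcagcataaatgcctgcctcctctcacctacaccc
Saa3: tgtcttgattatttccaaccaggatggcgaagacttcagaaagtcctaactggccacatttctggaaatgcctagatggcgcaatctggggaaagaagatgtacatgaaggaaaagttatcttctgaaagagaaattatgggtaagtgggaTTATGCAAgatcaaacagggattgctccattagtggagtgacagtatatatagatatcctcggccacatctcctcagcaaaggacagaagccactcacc
Orm2: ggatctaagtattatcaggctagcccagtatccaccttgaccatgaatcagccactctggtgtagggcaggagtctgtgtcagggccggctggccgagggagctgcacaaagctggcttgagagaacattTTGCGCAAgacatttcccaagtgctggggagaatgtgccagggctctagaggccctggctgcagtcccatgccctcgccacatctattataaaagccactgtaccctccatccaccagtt
The Saa1 and Saa2 windows were identical at 95.2% of the 250 bases and the Saa1 and Saa3 windows at 46.8%. The C/EBP motif was present in 6 of the 7 windows (Saa1, Saa2, Saa3, Orm2, Lcn2 and Hpx), against 9.56% of 32851 promoters of the same length. The STAT motif TTCNNNGAA was present in 1 of the 7, Itih4, against 7.02% of promoters. The STAT3 element CTGGGAA and the NF-kB motif GGGNNNTTC were in 0 of the 7 windows, against 9.1% and 11.8% of promoters. Both strands were searched, each window held at most 1 of these matches, and a match of letters is a description and not a bound site.

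The 10 genes spanned a wide range in level. Together they made up 1.86% to 2.92% of nuclear protein-coding FPKM in the Tsc1-deleted and double-mutant libraries, and 2.91%, 1.57% and 0.146% in the p53-heterozygous libraries. Hpx was the highest of the 10 in all 6 libraries with Tsc1 deletion, and Hp in all 3 p53-heterozygous libraries. Saa3 was the lowest in 8 of the 9 libraries, and Saa2 in p53-heterozygous library 3. Hp and Orm1 changed places in the order within the Tsc1-deleted and within the double-mutant group. Orm2, Itih4 and Lcn2 changed places between libraries, but kept that order in all 3 Tsc1-deleted libraries. Differences in level between these genes were not tested.

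Serum amyloid A proteins travel on high-density lipoprotein, and Saa1 and Saa2 are the hepatic forms. Values are listed in FPKM for libraries 1, 2 and 3 of the p53-heterozygous group, then of the Tsc1-deleted group, then of the double mutants. Saa1 was at 11.93, 0.83 and 1.39, then 28.02, 38.16 and 11.20, then 6.04, 22.37 and 8.06 FPKM. Saa2 was at 7.93, 0.52 and 0.40, then 18.55, 33.22 and 5.44, then 2.80, 11.14 and 5.48 FPKM. For both genes the p53-heterozygous range ran into the double-mutant range, Tsc1-deleted library 2 was the highest of all 9, and within each group the same library was highest. After nuclear rescaling p53-heterozygous library 1 became the highest library, at 122.74 FPKM for Saa1 and 81.64 FPKM for Saa2, while library 3 was the lowest, at 1.86 and 0.54 FPKM. As deposited library 2 had been the lowest for Saa1 and library 3 for Saa2. Saa3, which mice express in macrophages and fat as well as in liver, was at 0.25, 0.16 and 0.43, then 1.75, 3.05 and 0.21, then 0.67, 0.42 and 1.31 FPKM. At these levels Saa3 rested on at most about 4.45 to 128.8 reads per library, and its groups overlapped. After nuclear rescaling its p53-heterozygous values were 2.60, 1.77 and 0.57 FPKM, which still overlapped both other groups.

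Orm1 and Orm2 encode alpha-1-acid glycoproteins, plasma carriers of small lipophilic molecules. Orm1 was at 180.49, 88.01 and 34.30, then 1228.87, 1451.77 and 624.97, then 261.28, 675.41 and 242.99 FPKM in the same order of groups. Orm2 was at 22.63, 11.08 and 12.17, then 295.81, 271.54 and 435.35, then 72.28, 326.38 and 70.03 FPKM. As deposited the p53-heterozygous libraries were lowest for both genes. Double-mutant libraries 1 and 3 lay below every Tsc1-deleted library, and double-mutant library 2 lay within the Tsc1-deleted range. After nuclear rescaling Orm1 reached 1857.12 and 977.58 FPKM in p53-heterozygous libraries 1 and 2, above every double-mutant library, and 45.77 FPKM in library 3, below them all. Orm2 was then at 232.87, 123.05 and 16.24 FPKM in that group, with libraries 1 and 2 inside the double-mutant range and all 3 below the Tsc1-deleted libraries.

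Haptoglobin (Hp) binds free haemoglobin and haemopexin (Hpx) binds free haem. Hp was at 281.10, 153.11 and 125.50, then 1062.59, 2174.98 and 1788.60, then 1558.03, 593.84 and 1269.03 FPKM. Hpx was at 249.97, 126.00 and 97.23, then 4190.66, 3491.50 and 3605.82, then 2999.16, 4396.47 and 3048.95 FPKM. As deposited both genes were lower in every p53-heterozygous library than in any other. After nuclear rescaling Hp in p53-heterozygous libraries 1 and 2 was 2892.35 and 1700.71 FPKM, above all double-mutant libraries, while Hpx was 2572.05 and 1399.55 FPKM, still below every library of the other groups. Library 3 was at 167.47 FPKM for Hp and 129.75 FPKM for Hpx.

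Lipocalin 2 (Lcn2) binds the iron carriers of bacteria and is made by neutrophils as well as hepatocytes. It was at 3.79, 2.15 and 27.31, then 60.79, 143.19 and 157.11, then 152.48, 109.88 and 286.93 FPKM. The p53-heterozygous libraries were the lowest, also after nuclear rescaling, when they stood close together at 38.98, 23.88 and 36.45 FPKM. Double-mutant library 3, the highest for Lcn2, also had the highest summed level of 15 neutrophil markers as deposited, 86.5 FPKM against 4.99 to 36.2 FPKM in the others. After nuclear rescaling p53-heterozygous library 2, the lowest for Lcn2, had the highest neutrophil sum, at 329.9 FPKM. Most of these sums came from S100a9 and S100a8, at 50.28 and 18.31 FPKM in double-mutant library 3, and no other marker of the list exceeded 4.46 FPKM in any library as deposited. The granule genes Camp, Ltf and Ngp were also highest in double-mutant library 3, at 1.29, 1.25 and 1.42 FPKM, and the granule gene Prtn3 was highest in Tsc1-deleted library 2, at 2.51 FPKM. The part of these cells in the Lcn2 level was not tested.

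Lipopolysaccharide-binding protein (Lbp) hands bacterial lipopolysaccharide to its receptor CD14, and Itih4 is a heavy chain of the inter-alpha-trypsin inhibitor family. Lbp was at 1.37, 0.94 and 2.71, then 38.29, 29.20 and 43.95, then 49.46, 51.68 and 38.62 FPKM. Itih4 was at 41.16, 18.05 and 7.13, then 249.13, 229.88 and 311.26, then 550.55, 526.43 and 293.47 FPKM. As deposited the p53-heterozygous libraries were the lowest for both. After nuclear rescaling Lbp in that group, at 14.10, 10.46 and 3.61 FPKM, stayed below all other libraries, while Itih4, at 423.52, 200.55 and 9.52 FPKM, no longer did.

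**Figure D1:**
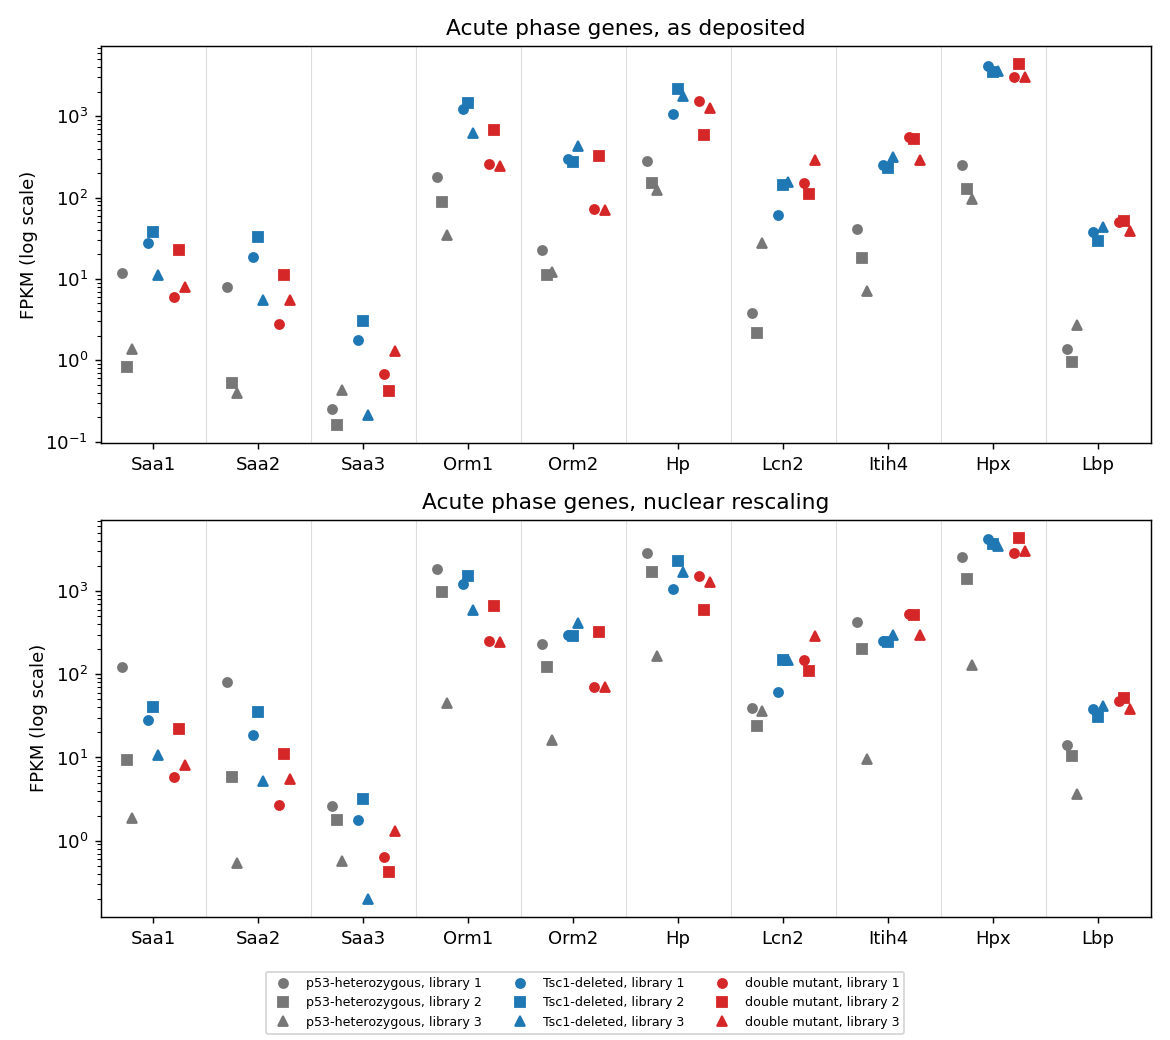
Level of the 10 acute phase genes in FPKM on a log axis, as deposited (top) and after nuclear rescaling (bottom), with 1 point per library, colour for the group and shape for the library number. Grey p53-heterozygous points lie lowest for Hpx, Hp, Orm1, Orm2, Itih4, Lcn2 and Lbp as deposited, and after rescaling only Hpx, Lcn2 and Lbp keep all 3 grey points below both other groups.

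The first comparison asked what p53 heterozygosity added to Tsc1 deletion. By limma on log2(FPKM + 1), none of the 10 genes passed as different between double-mutant and Tsc1-deleted livers. Adjustment was by Benjamini-Hochberg over all genes. The spread in this fit came from all 9 libraries, including the p53-heterozygous ones. At an unadjusted limma p under 0.05 it gave 256 genes, against 1379 with only the 6 libraries compared. Among all genes 0.0166% were called higher and 0.00832% lower as deposited. The estimates of Orm1 (-1.56 on the log2 scale, SE 0.91), Orm2 (-1.46, SE 0.91), Saa2 (-1.28, SE 0.87) and Saa1 (-1.07, SE 0.89) were negative and those of Itih4 (0.75, SE 0.89), Lcn2 (0.60, SE 0.97) and Lbp (0.33, SE 0.77) positive, with an adjusted p of 1.0 for each. The 95% interval for Orm1 ran from -3.48 to 0.35 and that for Hpx from -1.67 to 1.40. The median of the 10 estimates was -0.52 and that of all genes 0.29. In 0 of the 10 genes did the groups separate without overlap, against 11.4% of all genes in the higher and 3.18% in the lower direction as deposited and 13.2% and 3.3% after nuclear rescaling. After that rescaling 0 of the 10 passed, with adjusted p of 0.88 to 0.975, where 0.0166% of all genes were called higher and 0.0% lower. With only these 6 libraries in a rescaled fit Orm1 was at -1.59 (SE 0.51, unadjusted p 0.0131) and Orm2 at -1.48 (SE 0.58, unadjusted p 0.0344), both with a limma adjusted p of 0.389, and 0 of the 10 passed, where 0.0166% of all genes were called higher and 0.00832% lower. With only these 6 libraries scaled to equal hepatocyte markers, an alternative added after the data were seen, 409 genes passed in place of 3 (3.15% of all genes higher and 0.258% lower) but 0 of the 10, with Orm1 at an adjusted p of 0.147, Itih4 at 0.132, Orm2 at 0.18 and Lcn2 at 0.181. An exact permutation test of 3 libraries against 3 cannot give a p below 0.1.

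The second comparison set the double mutant against p53 heterozygosity alone. As deposited 6 of the 10 genes rose, where 31.9% of all genes were called higher. They were Itih4 (log2 change 4.56, SE 0.89, adjusted p 0.00587), Hpx (4.55, SE 0.73, adjusted p 0.00307), Lcn2 (4.50, SE 0.97, adjusted p 0.00865), Lbp (4.20, SE 0.77, adjusted p 0.00502), Orm2 (2.94, adjusted p 0.027) and Hp (2.58, adjusted p 0.0278) by limma. Orm1 (2.08, adjusted p 0.0759), Saa1 (1.57, adjusted p 0.146), Saa2 (1.32, adjusted p 0.198) and Saa3 (0.47, adjusted p 0.328) did not pass. Without overlap between groups were 7 of the 10, against 41.3% of all genes. The median of all genes was itself 1.38, and that of the 10 genes 2.76. Leaving out p53-heterozygous library 1 or 2, Tsc1-deleted library 1 or any double-mutant library left 4 of the 10 called, without Orm2 and Hp, where 2.66% to 18.3% of all genes were called higher. Leaving out Tsc1-deleted library 2 left 5, without Hp, where 19.6% were, and leaving out p53-heterozygous library 3 gave 7, where 93.3% were.

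Nuclear rescaling brought the median of all genes to 0.18 and left 2 of the 10 genes called, where 2.12% of all genes were called higher and 1.56% lower. They were Lbp (log2 change 2.33, SE 0.46, adjusted p 0.0332) and Lcn2 (2.33, SE 0.55, adjusted p 0.0491) by limma. Lcn2 lay at the threshold. Of the 9 fits that left out a library it passed in 1, without p53-heterozygous library 3, and Lbp passed in 3, without p53-heterozygous library 1 or 3 or Tsc1-deleted library 3, and with a block for the library number Lbp alone passed. With only the 6 libraries compared neither passed, at adjusted p of 0.109 for Lcn2 and 0.105 for Lbp, where 0.3% of all genes were called higher and 0.0583% lower. Hpx (2.12, SE 1.05, adjusted p 0.272) did not pass, although its groups did not overlap, as for 3 of the 10 genes and 17.4% of all genes in the higher and 9.56% in the lower direction. Itih4 (2.17, SE 1.15, adjusted p 0.306) and Orm2 (0.57), Hp (0.15), Orm1 (-0.35), Saa1 (-0.45), Saa2 (-0.53) and Saa3 (-0.51) did not pass either.

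The direction of several genes depended on which p53-heterozygous libraries were used. Without library 3 and after nuclear rescaling, Orm1 was lower in the double mutant (log2 change -1.96, SE 0.57, adjusted p 0.0348) where 5.97% of all genes were called lower, and Lbp (1.82, adjusted p 0.00402) and Lcn2 (2.41, adjusted p 0.0127) were higher where 18.4% were called higher. Against library 3 alone, a fit that takes this single library to vary like the other groups, 7 of the 10 genes were higher, where 9.67% of all genes were called higher and 17.8% lower, with Orm1 at 2.89 (adjusted p 0.02) and Lcn2 at 2.16 (adjusted p 0.0443). The low hepatocyte sum of library 3 is given above, and its part in these values was not tested.

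The third comparison set Tsc1 deletion against p53 heterozygosity. As deposited 7 of the 10 genes rose, where 12.1% of all genes were called higher, and these 7 were without overlap, against 27.4% of all genes. They were Hpx (log2 change 4.68, SE 0.73, adjusted p 0.00687), Orm2 (4.40, SE 0.91, adjusted p 0.00976), Lcn2 (3.90, adjusted p 0.0182), Lbp (3.87, adjusted p 0.00945), Itih4 (3.81, adjusted p 0.015), Orm1 (3.65, adjusted p 0.0182) and Hp (3.19, adjusted p 0.0189) by limma. Saa2 (2.61, adjusted p 0.0572), Saa1 (2.64, adjusted p 0.0596) and Saa3 (0.90, adjusted p 0.141) did not pass. Without p53-heterozygous library 1 the count was 8, where 4.81% of all genes were called higher, with Saa1 (adjusted p 0.0233) and Saa2 (adjusted p 0.0188) passing and Lcn2 not. It was 5 without library 2, where 5.04% were called higher and Hp and Lcn2 did not pass, and 9 without library 3, where 89.4% were called higher and all but Saa3 passed. The count was 0 when any 1 Tsc1-deleted library was left out, where at most 0.0749% of all genes were called higher, and when only the 6 libraries compared were fitted, where 0.166% were. After nuclear rescaling 0 of the 10 passed, where 0.0916% of all genes were called higher, with Lbp at 2.02 (SE 0.46, adjusted p 0.0831), Lcn2 at 1.75 (SE 0.55, adjusted p 0.155), Hpx at 2.27 (adjusted p 0.311) and Orm2 at 2.05 (adjusted p 0.32). These 4 genes were without overlap after rescaling, against 8.75% of all genes in the higher and 11.9% in the lower direction. With only the 6 libraries compared, rescaled, 0 of the 10 passed, where 0.0416% of all genes were called higher and 0.0166% lower. Without p53-heterozygous library 3 Lbp passed after rescaling (1.52, adjusted p 0.015), where 4.4% of all genes were called higher and 3.95% lower. Against library 3 alone 8 of the 10 passed, where 9.36% were called higher and 26.0% lower. Both comparisons with p53 heterozygosity share the p53-heterozygous libraries, and are not separate evidence.

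**Figure D2:**
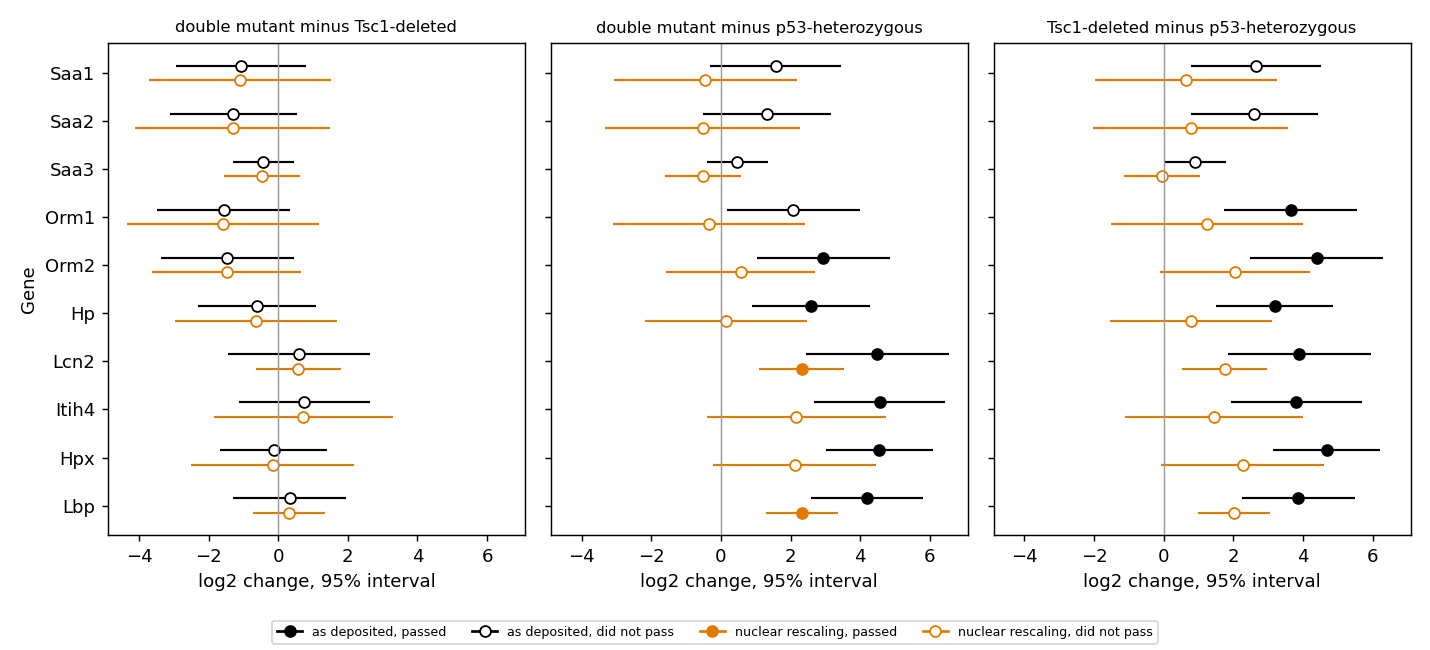
Log2 change of each gene with its 95% interval in the 3 comparisons, in black as deposited and in orange after nuclear rescaling, with filled points where the limma adjusted p was under 0.05. All 10 intervals of double mutant minus Tsc1-deleted include 0, and after rescaling the filled points are Lcn2 and Lbp in double mutant minus p53-heterozygous. Every interval uses the spread of all 9 libraries, including the p53-heterozygous ones.

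Ratios of FPKM within a library do not depend on how the library was scaled. Hpx exceeded Hp by 1.61-fold to 7.4-fold in the 6 libraries with Tsc1 deletion and stood at 0.889, 0.823 and 0.775 of Hp in the p53-heterozygous libraries, including library 3. This pair was chosen after its values were seen. Of the 45 pairs among the 10 genes, 3 had ratios in the p53-heterozygous libraries that did not overlap those of the other 6, Hp with Hpx and Saa3 with Hpx and Lbp. These were 6.67% of the pairs, below the 18.4% over all pairs of genes with a mean of at least 5 FPKM and a value above 0 in every library. With ratios of FPKM + 1, which do depend on the scaling of low genes, 10 pairs or 22.2% did not overlap, against 20.6% over all pairs of genes with that mean. Saa3 was in 2 of the 3 pairs and in 6 of the 10. Its mean was 0.916 FPKM as deposited, under the 5 FPKM minimum of both backgrounds, so these shares do not compare like with like. The ratios without the added 1 were computed after the others had been seen. Saa2 stood at 66.5%, 62.7% and 28.9% of Saa1 in the p53-heterozygous libraries, 66.2%, 87.1% and 48.5% in the Tsc1-deleted and 46.3%, 49.8% and 68.0% in the double-mutant libraries. Orm2 stood at 12.5%, 12.6% and 35.5% of Orm1, at 24.1%, 18.7% and 69.7%, and at 27.7%, 48.3% and 28.8%. The groups overlapped for both of these ratios. Of the 50-base stretches of annotated Saa1 transcripts 13.2% also occur in Saa2, and of Orm1 20.4% in Orm2, so reads from these stretches cannot be assigned to 1 gene, and the handling of such reads was not given in the labels.

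**Figure D3:**
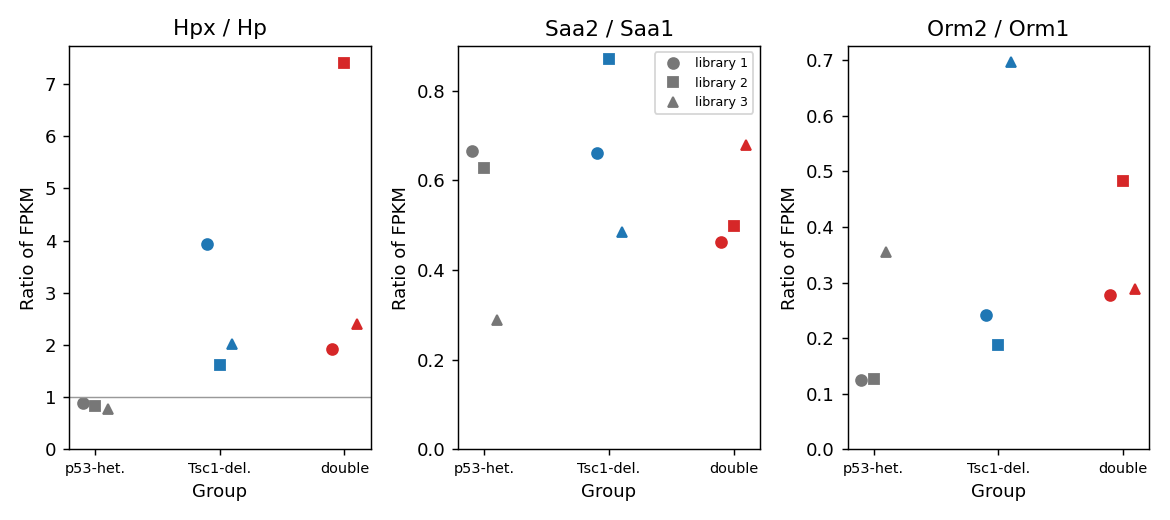
Ratio of FPKM within each library for Hpx to Hp, Saa2 to Saa1 and Orm2 to Orm1, with 1 point per library and the group on the x axis. The 3 p53-heterozygous points for Hpx to Hp lie below the line at 1, between 0.775 and 0.889, while the groups overlap in the other panels.

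Relative to Alb, a hepatocyte gene that falls in an acute phase response, the values depend on the scaling of a library through the pseudocount of 1 FPKM alone, which weighs on low genes. Lcn2 stood at -8.85, -9.56 and -2.41 on the log2 scale relative to Alb in the p53-heterozygous libraries, -7.64, -5.79 and -6.17 in the Tsc1-deleted and -6.08, -6.29 and -5.35 in the double-mutant libraries. Lbp stood at -9.87, -10.26 and -5.34, at -8.29, -8.04 and -7.98, and at -7.68, -7.36 and -8.21. Libraries 1 and 2 of the p53-heterozygous group were the lowest for both genes and library 3 the highest. Library 3 was the highest of all 9 relative to Alb for Saa1, Saa3, Orm1, Orm2, Hp, Lcn2, Hpx and Lbp, where its Alb was lowest. For Saa2 it was the highest only with the added 1 FPKM. In plain FPKM, Saa2 in library 3 stood at 0.269% of Alb. That was below 0.417% in Tsc1-deleted library 2 and 0.358% in p53-heterozygous library 1. Itih4 was highest in double-mutant library 2.

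**Figure D4:**
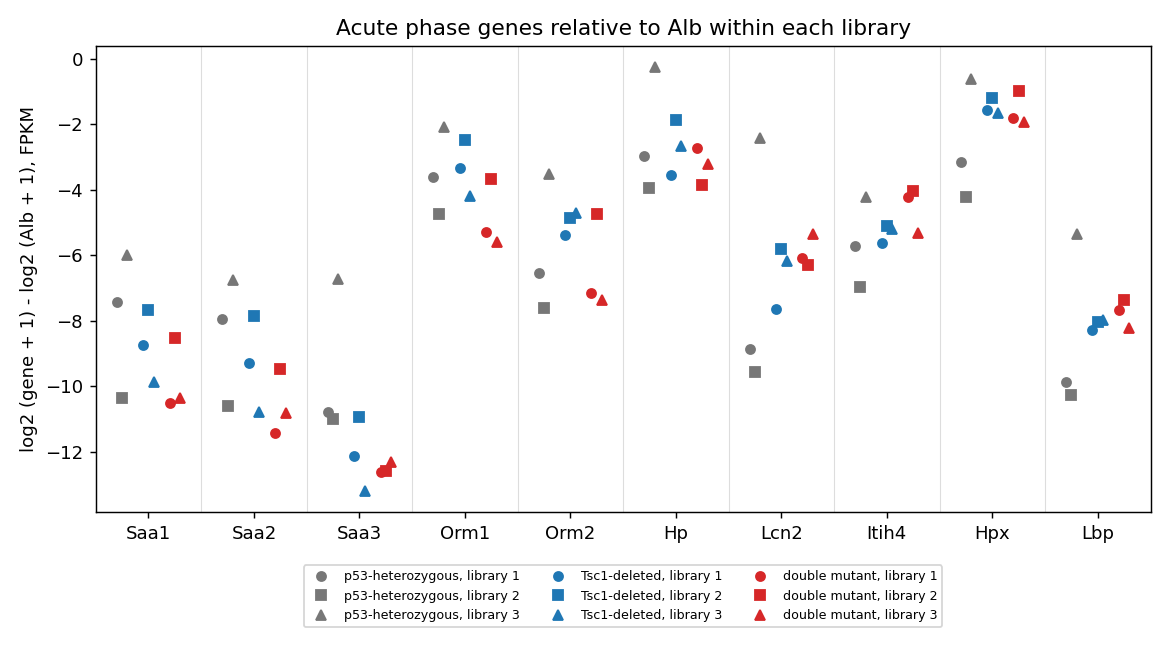
Difference of log2(FPKM + 1) between each acute phase gene and Alb within each library, with 1 point per library. The grey triangle, p53-heterozygous library 3, is the highest point for every gene but Itih4, and the grey circle and square, libraries 1 and 2, are the lowest for Lcn2 and Lbp. For Saa2 the triangle is highest only because of the added 1 FPKM.

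Profiles were compared over the 9 libraries after nuclear rescaling, by the root mean square difference of centred log2 values among 5108 genes with a mean of at least 5 FPKM. Saa1 and Saa2 were nearest to each other, at 0.24, against own spreads of 1.51 and 1.64. The next to Saa1 was Lrg1, at 0.63, and to Saa2 Cyp2c67, at 0.57. The nearest to Lbp was Slc31a1, at 0.21, to Hpx Dmgdh and Cpn2, both at 0.24, to Itih4 F12 at 0.32, to Orm1 Nat8f2 and Adh4 at 0.36, to Hp Serpina11 at 0.40, to Orm2 Ugt2a3 at 0.41 and to Lcn2 Neu1 at 0.42 and Sqstm1 at 0.44. Among all candidates, the nearest of the 10 genes ranked 34 for Itih4 and 68 for Hpx, which were nearest to each other, and 103 for Orm2, 116 for Orm1, 290 for Lcn2, 335 for Lbp and 391 for Hp. By this rank Saa3 stood furthest from the set, its nearest of the 10, Hp, ranking 2022 at a difference of 0.98. Its own spread, 0.59, was the smallest of the 10. The added 1 FPKM compresses so low a gene, which limits the meaning of this rank.

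Other genes of the response were counted by list on the nuclear-rescaled scale unless said otherwise. On that scale at most 2.12% of all genes were called higher and 1.56% lower in any comparison. The list of other positive acute phase genes also holds Saa4, a constitutive serum amyloid A. Of 26 other positive acute phase genes tested, 0 passed in any comparison, while as deposited 16 rose in the double mutant and 19 in the Tsc1-deleted livers against the p53-heterozygous, where 31.9% and 12.1% of all genes were called higher. Among these were the fibrinogen chain Fgg, the largest of those rises in the Tsc1-deleted livers (log2 change 4.28, limma adjusted p 0.0112 as deposited and 1.89, adjusted p 0.49 rescaled), and complement C3 (4.25 in the double mutant, limma adjusted p 0.00518 as deposited and 1.82, adjusted p 0.261 rescaled). Of 18 negative acute phase genes, which fall in the response, 0 passed after rescaling, and as deposited 13 and 17 were called higher, beside the same 31.9% and 12.1% of all genes. Il6 and Il22, ligands of the response, were listed at 0 in all 9 libraries, and of 7 ligands tested Il1a alone was called after rescaling, lower in the double mutant than in the p53-heterozygous livers (-1.79, SE 0.32, limma adjusted p 0.0262). As deposited the levels of Il1a in FPKM, 0.41, 0.36 and 3.08 with p53 heterozygosity alone and 0.00, 0.62 and 0.96 with both mutations, overlapped, and it was not called (-0.43, SE 0.44, limma adjusted p 0.395). Rescaling brought the p53-heterozygous values to 4.21, 3.97 and 4.11 FPKM. In libraries 1 and 2 these are low values multiplied by 10.29 and 11.11, which limits the call. Of 17 receptors and kinases Il22ra1, a subunit of the interleukin-22 receptor, rose in that comparison (2.08, SE 0.26, limma adjusted p 0.00822 rescaled and 2.09, SE 0.36, limma adjusted p 0.00419 as deposited). It was at 3.17, 3.14 and 3.51 FPKM as deposited in double mutants, at 0.45, 0.43 and 1.25 with Tsc1 deletion, and listed at 0 in every p53-heterozygous library. Nuclear protein-coding genes held only 7.4% and 6.6% of the signal in libraries 1 and 2 of that group. A gene this low can be missed there, and rescaling leaves a 0 at 0. As deposited 1 of the 7 ligands and 4 of the 17 receptors and kinases rose in that comparison, where 31.9% of all genes were called higher. Of 17 transcription factors of the response, 16 feedback and immediate targets and 8 receptors and clearance partners, 0 passed after rescaling. As deposited 5, 2 and 5 of them rose in the double mutant against the p53-heterozygous livers, where 31.9% of all genes were called higher. Stat3 after rescaling was at 5.30, 7.59 and 7.16, then 5.17, 4.33 and 10.76, then 12.05, 9.46 and 9.94 FPKM, an estimated difference of 0.59 (SE 0.36, limma adjusted p 0.387) in the double mutant against the p53-heterozygous livers.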

How the data were processed

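RNA of 9 mouse liver libraries, 3 per genotype, was measured by single-read sequencing of 50 cycles after depletion of ribosomal RNA, per the labels' protocols, although a label calls the molecule polyA RNA. Cutadapt, STAR, StringTie and the build mm9 are named in the submitters' processing notes, and versions are not given in the sources used here. The authors deposited 1 FPKM value per gene and library, a unit read from the values since no header states it. No counts were given, so depth was estimated from the FPKM step of 1 read.

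A filter of 1 FPKM or more in at least 3 libraries kept 12014 genes, fitted as log2(FPKM + 1), all 9 libraries together, with limma 3.58.1 (trend and robust) in R 4.3.3, with Benjamini-Hochberg adjustment and a threshold of 0.05. Fold changes on this scale understate the change of low genes. Nuclear rescaling set each library's nuclear protein-coding total to the median of the 9 totals, a target set after the data were seen. Gene models came from GENCODE M21, which annotates a later build, and promoters from RefSeq GRCm38.p6. The fit was also run on simulated data with 200 shifted genes. Each gene had the same spread in all groups there, and libraries did not differ in scale. The simulation therefore does not cover the scale and spread of the p53-heterozygous libraries. Python 3.11.15, pandas 2.3.3, numpy 2.4.6, Biopython 1.88 and matplotlib 3.10.9 were used.

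The 10 genes, the lists and the tests were chosen with earlier results of these data known. Named genes were all 10, the nearest profiles and some genes of the lists. The last were in part leading genes by level or called genes, but Stat3, Il6, Il22 and others were picked outside that rule. The labels do not pair libraries between groups. The design text counts 6 groups, of which 3 were analysed here. Alternatives were other pseudocounts, filters, scalings and fits, a block for the library number, summed paralogs, and leaving out libraries. Added after the data were seen were leaving out p53-heterozygous libraries 1 and 2, summed paralogs with nuclear rescaling, ratios of FPKM without a pseudocount, and the 6 libraries compared with hepatocyte rescaling.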

Additional observations from a re-analysis of the deposited data

How the results depend on the processing

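Alternatives to the values as deposited and alternatives to the nuclear-rescaled values were judged each against their own main value, a grouping chosen after the data were seen. The fit of the 6 libraries compared with hepatocyte rescaling, added after the data were seen, gave the largest difference between settings for the double mutant against the Tsc1-deleted livers. The cause of the differences was not tested.

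For double mutant minus Tsc1-deleted, none of the 10 genes passed in any setting run. Among all genes 3 passed as deposited, 1 without a filter, 0 with hepatocyte rescaling of all 9 libraries, 0 without trend and robust steps, 35 with the replicate block, 409 (378 higher and 31 lower, 2893 at an unadjusted p under 0.05) with hepatocyte rescaling of the 6 libraries, and 0 to 6 with 1 library left out. After nuclear rescaling 2 passed, 1 with the block, and 1 to 5 with 1 library left out. Hpx, at -0.13 as deposited, was at 0.21 with quantile normalization and 0.30 with either hepatocyte rescaling, and Lbp, at 0.33, was at -0.053 with median-ratio rescaling.

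For double mutant minus p53-heterozygous, the 6 of the 10 genes called as deposited became 7 without trend and robust steps, 4 without a filter, 4 with only the 6 libraries, 4 to 7 with 1 library left out, 2 with nuclear, 1 with median-ratio, 3 with quantile and 0 with either hepatocyte scaling. Of all genes 31.9% were called higher as deposited, 29.3% without trend and robust steps and 4.05% without a filter. The share was 9.18% with only the 6 libraries and 2.66% to 93.3% with 1 library left out. It was 2.12% with nuclear, 3.61% with median-ratio, 3.31% with quantile and at most 0.00832% with either hepatocyte scaling. The 3892 genes called became 1142 without a filter, 442 with nuclear, 809 with median-ratio, 860 with quantile and 52 with hepatocyte scaling, 1127 with only the 6 libraries, 32 with those scaled to hepatocyte markers, 5974 with the replicate block, 2212 without p53-heterozygous libraries 1 and 2, and 322 to 11295 with 1 library left out. After nuclear rescaling the 2 of the 10 became 0 with only the 6 libraries, 1 with the replicate block, 7 without p53-heterozygous libraries 1 and 2, and 0 to 3 with 1 library left out, and the 442 genes became 43 with only the 6 libraries, 3297 without p53-heterozygous libraries 1 and 2, and 34 to 2923 with 1 library left out. Directions turned with nuclear, median-ratio, quantile and hepatocyte scaling for Saa1 (-0.45, -0.65, -0.67 and -1.49), Saa2 (-0.53, -0.76, -0.83 and -1.32) and Saa3 (-0.51, -0.66, -0.68 and -1.35). They turned for Orm1 with nuclear (-0.35), median-ratio (-0.51) and hepatocyte scaling (-1.55), for Orm2 with hepatocyte scaling (-0.63) and for Hp with median-ratio (-0.018) and hepatocyte scaling (-1.07). The hepatocyte values were the same with only the 6 libraries. Without p53-heterozygous libraries 1 and 2 the rescaled values turned to 1.98 for Saa1, 2.10 for Saa2, 0.16 for Saa3 and 2.89 for Orm1. With 1 library left out the rescaled values ran from -1.66 to 1.06 for Saa1, -1.84 to 1.03 for Saa2, -1.96 to 0.69 for Orm1, -0.53 to 1.35 for Orm2 and -1.09 to 0.96 for Hp.

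For Tsc1-deleted minus p53-heterozygous, the 7 of the 10 genes called as deposited became 9 with the replicate block, 9 of the 9 tested with a filter at 5 FPKM, 8 with a pseudocount of 0.1, 8 without trend and robust steps, 4 without a filter, 0 with each of nuclear, median-ratio, quantile and hepatocyte scaling, 0 with only the 6 libraries, as deposited or with hepatocyte scaling, and 0 to 9 with 1 library left out. Of all genes 12.1% were called higher as deposited, 18.7% with the block and 27.9% with the filter at 5 FPKM. The share was 14.4% with the pseudocount of 0.1, 15.4% without trend and robust steps and 2.14% without a filter. It was at most 0.924% with the 4 scalings, 0.166% with only the 6 libraries, and 0.00832% to 89.4% with 1 library left out. The 1470 genes called became 599 without a filter, 22 with nuclear, 193 with median-ratio, 100 with quantile and 42 with hepatocyte scaling, 20 with only the 6 libraries, 30 with those scaled to hepatocyte markers, 2277 with the replicate block, 2600 without p53-heterozygous libraries 1 and 2, and 1 to 10820 with 1 library left out. After nuclear rescaling the 0 of the 10 became 8 without those 2 libraries and 0 to 1 with 1 left out, and the 22 genes became 7 with only the 6 libraries, 4248 without p53-heterozygous libraries 1 and 2, and 3 to 1004 with 1 library left out. Directions turned with hepatocyte scaling for Saa1 (-0.83), Saa2 (-0.43), Saa3 (-1.18), Orm1 (-0.42), Hp (-0.89) and Itih4 (-0.18), and for Saa3 with nuclear (-0.060) and quantile scaling (-0.026). The rescaled value of Saa3 was 0.61 without p53-heterozygous libraries 1 and 2. With 1 library left out the rescaled values ran from -0.57 to 2.15 for Saa1, -0.54 to 2.33 for Saa2, -0.46 to 0.44 for Saa3, -0.38 to 2.28 for Orm1, -0.47 to 1.59 for Hp and -0.16 to 2.51 for Itih4. The library numbers are not known to pair libraries, and the correlation of deviations between same-numbered libraries had no common sign. Depth limits Saa3 most, the lowest of the 10 genes.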

Other observations

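Some other genes of the lists were picked after their values were seen, and among the 26 other positive acute phase genes tested they are not typical, since 14 of the 26 estimates of double mutant minus Tsc1-deleted were positive, with a median of 0.03 on the log2 scale as deposited. Values are as deposited unless said otherwise. Saa4, a constitutive serum amyloid A counted among these 26, was at 117.35, 120.57 and 71.79 FPKM with Tsc1 deletion alone and at 12.94, 66.42 and 29.93 in double mutants, without overlap, as for 3.18% of all genes in that direction, for an estimated log2 difference of -1.72 (SE 0.87, limma adjusted p 1.0). Orm3 was at 62.28, 89.85 and 24.26, then 8.54, 30.54 and 4.57 FPKM, with overlap, at -2.15 (SE 0.90, limma adjusted p 1.0). Serpina3k, an acute phase gene from no family of the 10 and of a gene cluster with near-identical copies whose reads may be split, was at 653.47, 772.61 and 336.80, then 28.58, 140.75 and 82.32 FPKM, without overlap, at -2.98 (SE 1.08, limma adjusted p 1.0). Estimates of other genes were positive, at 0.98 (SE 0.90) for Itih3 and 0.79 (SE 0.90) for Itih2, of the family of Itih4, and 0.06 (SE 0.85) for Serpina3n, of the Serpina3 cluster, each with a limma adjusted p of 1.0, while Itih1 was at -0.25 (SE 0.86). After nuclear rescaling the estimates were -1.74 for Saa4, -2.17 for Orm3 and -3.0 for Serpina3k, each with a limma adjusted p of 0.88. In p53-heterozygous libraries 1, 2 and 3 after nuclear rescaling Serpina3k stood at 3894.79, 665.86 and 23.83 FPKM.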
